A study of Mus musculus with 39 samples.

Results

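Type I interferon response genes are genes whose transcription is known to rise when a cell senses type I interferon. The 34 genes described here are a named list of mouse symbols, matched through their Ensembl identifiers to rows of the deposited count table, 34 of 53379 genes in all. Each symbol matched 1 row, all 34 passed the filter on low counts that left 22061 genes for testing, and the list was chosen with earlier results of these data known. The cells were microglia, the macrophages of the brain parenchyma, and border-associated macrophages (BAM), the macrophages of the meninges, choroid plexus and perivascular spaces, sorted from brains of C57Bl/6 mouse embryos. Microglia were represented by 4 libraries at E10.5 (embryonic day, counted from the plug), 3 at E11.5, 3 at E12.5, 2 at E14.5, 3 at E16.5 and 4 at E18.5, and BAM by 4, 3, 3, 3, 3 and 4 libraries at the same stages. The labels give 1 strain and no treatment or allele for any of the 12 groups, and do not say whether embryos were pooled or which libraries came from separate embryos or litters, so p-values measure only the spread between these libraries, which may be technical.

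Type I interferons bind a receptor made of the Ifnar1 and Ifnar2 chains, whose kinases Jak1 and Tyk2 activate transcription factors, Stat2 among them. Stat2 and Irf9 belong to a complex that enters the nucleus and binds interferon-stimulated response elements near the genes it activates. The products include sensors of viral RNA, enzymes that degrade RNA or alter nucleotides, membrane proteins that hinder virus entry or release, and regulators such as Usp18 and Irf7 that damp or extend the response. Macrophages are known to keep a low tonic level of this programme without infection.

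To show the sequence such a response rests on, the RefSeq promoter windows of the genes (GRCm38.p6, 250 bases before to 50 after each start site) were searched for the core of the interferon-stimulated response element, GAAANNGAA, on both strands. Windows were matched for 25 of the 34 genes, and 15 of those 25 (60.0%) held the core, against 9.761% of all 27025 genes with a window. The core of the gamma-activated site, TTCNNNGAA, which can overlap it, was found in 6 of 25 (24.0%) against 9.554% of all genes. The stretches below come from genes that were higher in BAM at several stages (Oas1a, Ddx60, Bst2, Trim30a) and from genes that were not called higher in BAM at any stage (Isg15, Oas3, Ifit1). Each is written 5′ to 3′ on the strand of its gene, with the matches to GAAANNGAA or its reverse complement in capitals.
Oas1a: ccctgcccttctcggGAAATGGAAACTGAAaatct
Ddx60: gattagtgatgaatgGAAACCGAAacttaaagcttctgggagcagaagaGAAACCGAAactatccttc
Bst2: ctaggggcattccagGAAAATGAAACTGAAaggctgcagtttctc
Trim30a: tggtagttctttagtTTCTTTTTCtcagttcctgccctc
Isg15: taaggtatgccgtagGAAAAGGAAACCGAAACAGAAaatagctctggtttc
Oas3: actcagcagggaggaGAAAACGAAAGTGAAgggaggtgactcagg
Ifit1: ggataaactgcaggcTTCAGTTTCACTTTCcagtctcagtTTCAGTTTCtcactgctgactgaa
The Oas1a stretch lies at chr5:120907526-120907560 on the minus strand, and its capitals start 20 bases before the start site. The stretch of Ddx60 lies at chr8:61928019-61928086 on the plus strand and holds 2 separate matches, the first of them 53 bases before the start site. Bst2 is shown for chr8:71537573-71537617 and Trim30a for chr7:104465205-104465243, both on the minus strand. The 3 other stretches lie at chr4:156200861-156200911 (Isg15, minus strand), chr5:120777705-120777749 (Oas3, minus strand) and chr19:34640765-34640828 (Ifit1, plus strand). Isg15 and Ifit1 each held 3 matches and Oas3 held 2. The printed genes were taken from those with a match, so they do not compare the patterns. Windows without the core were those of Irf9, Oasl2, Xaf1, Cmpk2 and Sp100, called higher in BAM at some stage. The others without it were Ifit2, Irf7, Oasl1, Ifi35 and Herc6, not called higher at any. A match describes these letters only, and binding was not measured.

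The shallowest library held 10.7 M counts, the deepest 47.2 M and the median library 22.4 M. The library names fall into 2 numbered series: R10 held every E10.5 and E11.5 library and 1 E18.5 library of each population, and R8 held the rest, so E12.5 was not tested against E11.5. The population labels could be checked against marker genes. All 8 BAM markers (Mrc1, Cd163 and Lyve1 among them) were called higher in BAM in the mean over stages and all 8 microglia markers (Tmem119, P2ry12 and Sall1 among them) lower, while the summed microglia markers at E10.5 stood at 2836 to 4070 CPM in microglia and 1633 to 2166 in BAM. Markers of plasmacytoid dendritic cells, which are strong interferon producers, summed to 0.238 to 7.62 CPM over all libraries, and lymphoid markers to at most 2.77 CPM. In bulk RNA of this kind, fewer cells of a type and less RNA per cell cannot be told apart.

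The summed level of the 34 genes overlapped between the populations at E10.5 and E11.5, was higher at E11.5 than at E10.5 in both, and from E12.5 on was higher in every BAM library than in every microglia library of the same stage. Levels are counts per 1000000 counts of the library (CPM). In BAM the sum was 596 ± 50.4 CPM (SD, n = 4) at E10.5, 1371 ± 45.9 (n = 3) at E11.5, 1947 ± 116 (n = 3) at E12.5, 1568 ± 137 (n = 3) at E14.5, 1296 ± 208 (n = 3) at E16.5 and 2214 ± 153 (n = 4) at E18.5. In microglia it was 638 ± 113 CPM (SD, n = 4) at E10.5, 1203 ± 154 (n = 3) at E11.5, 1047 ± 122 (n = 3) at E12.5, 699 ± 130 (n = 2) at E14.5, 734 ± 43.1 (n = 3) at E16.5 and 1014 ± 255 (n = 4) at E18.5. Trim30a alone made up 86.4 to 274 CPM of a library, and without it the sum at E12.5 was 1600 to 1807 CPM in BAM and 814 to 1051 in microglia. The microglia libraries at E18.5 were split, at 824 and 767 CPM in replicates 1 and 2 and 1263 and 1203 in replicates 3 and 4, where replicate 1 is of series R10 and the others of R8. No test was made on these sums.

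**Figure D1:**
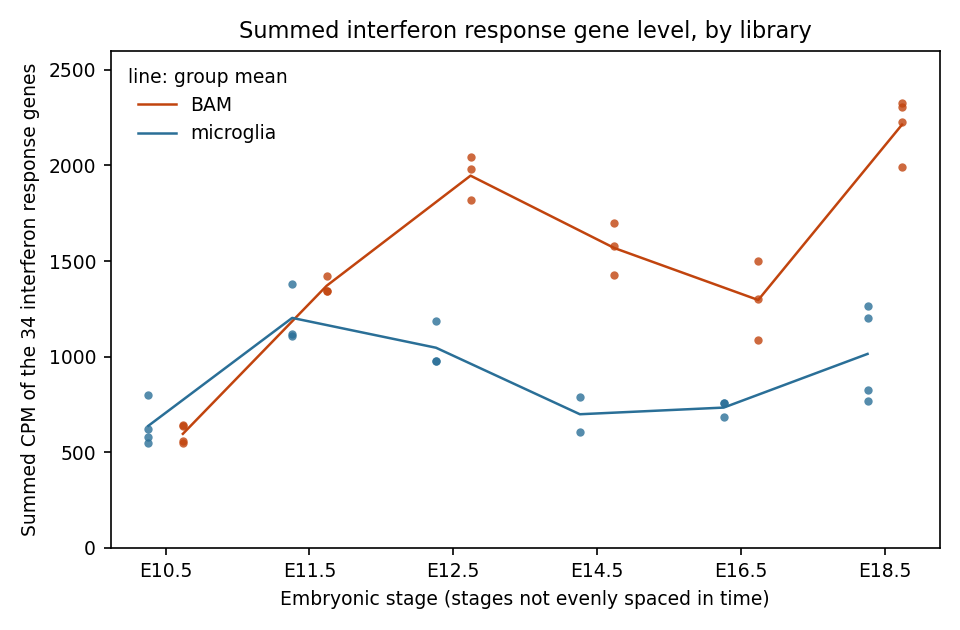
Summed CPM of the 34 interferon response genes (vertical axis) in each library by embryonic stage (horizontal axis), with BAM in orange, microglia in blue, and lines through the group means. The populations overlap at E10.5 and E11.5, and from E12.5 on the lowest BAM library of a stage, such as 1086 CPM at E16.5, lies above the highest microglia library, such as 759 CPM.

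Averaged over the 6 stages, 21 of the 34 genes were higher in BAM and 1 was lower, where a gene was called at an adjusted p below 0.05 in edgeR's quasi-likelihood test over all genes tested. Of all genes tested, 3030 (13.7%) were called higher and 3199 lower in that comparison, 28.2% in either direction. The median log2 difference, BAM minus microglia, was 0.47 over the 34 genes and -0.02 over all genes tested. The largest mean differences were those of Ddx60 (1.95 ± 0.12, SE), Oas2 (1.89 ± 0.14), Rsad2 (1.43 ± 0.25), Rtp4 (1.31 ± 0.14), Ifi27l2a (1.30 ± 0.25) and Oas1a (1.24 ± 0.12). The gene called lower was Oas3 (-1.64 ± 0.61, adjusted p = 0.0411), a call lost in 21 of 39 refits that left out 1 library. Of the other 12 genes, which were not called, 3 had a mean difference below 0, namely Mx1, Mx2 and Zbp1.

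The population difference was not the same at every stage. At E10.5, 2 of 34 genes were higher and 4 lower in BAM, against 2.32% and 2.16% of all genes. At E11.5, 1 gene, Ddx60, was higher and 0 were lower, against 2.84% and 3.83%. From E12.5 on the calls were nearly all on the side of BAM. At E12.5, 13 genes were higher and 0 lower (4.12% and 4.42% of all genes), and at E14.5, 15 were higher and 0 lower (3.93% and 3.25%). At E16.5, 16 were higher and 1, Mx2, lower (7.09% and 6.74%), and at E18.5, 18 were higher and 0 lower (6.7% and 8.75%). A test of whether the difference was equal at all 6 stages called 14 of the 34 genes, against 6.48% of all genes, with the smallest adjusted p for Sp100 (1.1e-06), Oas1a (0.000181) and Oasl2 (0.000209). Every E10.5 and E11.5 library is of series R10 and every E12.5, E14.5 and E16.5 library of R8. A change of the difference between those stages therefore cannot be told apart from one between the series.

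**Figure D2:**
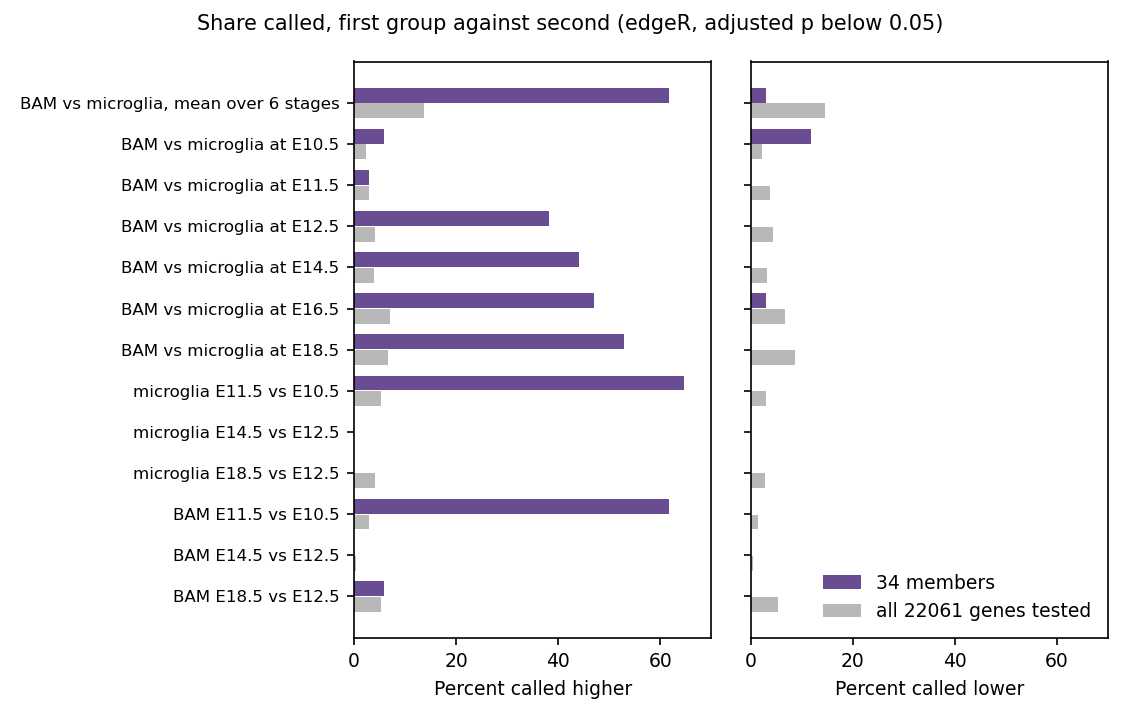
Percent of genes called higher (left) and lower (right) in the first-named group of each comparison, for the 34 interferon response genes in purple and all 22061 tested genes in grey. The purple bars reach 61.8% for BAM against microglia averaged over stages and 64.7% and 61.8% for E11.5 against E10.5 in microglia and BAM, and in the last window of BAM they are near the grey ones, at 5.88% against 5.24%.

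A set of 12 genes was called higher in BAM at each of E12.5, E14.5, E16.5 and E18.5: Bst2, Ddx58, Ddx60, Dhx58, Ifi27l2a, Oas1a, Oas2, Oasl2, Parp14, Rtp4, Trim30a and Xaf1. Of these, 3 (Ddx60, Oas2 and Trim30a) kept the call at all 4 stages in every refit without 1 library, and Ifi27l2a lost it in 5 of 6 refits at E12.5, 3 of 5 at E14.5, 1 of 6 at E16.5 and 7 of 8 at E18.5. Ddx60 was the gene called higher at all 6 stages. A further 7 genes were called higher at 1 to 3 stages: Cmpk2, Ifih1, Ifitm3, Irf9, Rsad2, Sp100 and Stat2. The 15 genes not called higher in BAM at any stage were Ifit1, Ifit2, Ifit3, Isg15, Irf7, Oas3, Oasl1, Mx1, Mx2, Usp18, Ifi44, Ifi35, Zbp1, Herc6 and Eif2ak2. Of these, Ifit3 and Irf7 were called higher in the mean over stages.

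**Figure D3:**
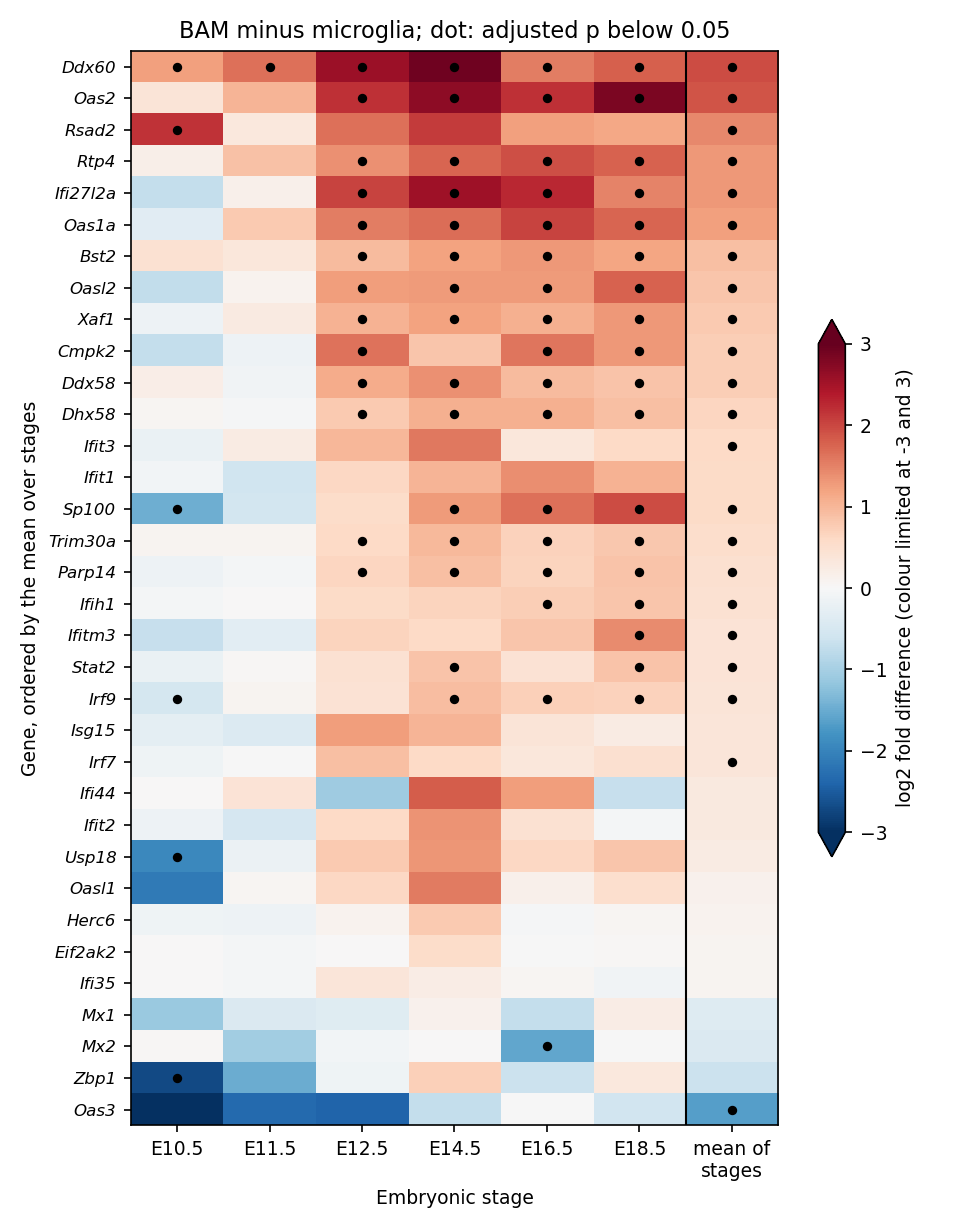
Log2 difference BAM minus microglia (colour) for each of the 34 genes (rows) at each stage and in the mean over stages (columns), where a black dot marks an adjusted p below 0.05. Red cells with dots run from E12.5 to E18.5 in most upper rows. The row of Rsad2 has no dot at those stages. At E10.5 the dots of Ddx60 and Rsad2 sit on red cells and those of Usp18, Sp100, Irf9 and Zbp1 on blue cells.

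These counts moved when single libraries were left out. At E10.5 the count of genes called was 3 without BAM replicate 4 and 1 when the compared groups were fitted alone, where Usp18 and Sp100 were no longer called. At E12.5 the count was 5 without microglia replicate 1, 6 without microglia replicate 2 and 8 without BAM replicate 2. Microglia replicate 3 of E12.5 held 5587 CPM of summed BAM markers, against 2970 and 1836 in replicates 1 and 2, and without it the count was 11. These markers summed to 5033 to 7457 CPM in the microglia libraries of E11.5 and to 2002 to 2242 in those of E18.5. Summed monocyte markers stood at 68.2 CPM in microglia replicate 2 of E12.5, against 9.6 and 16.3 in replicates 1 and 3. Granulocyte and mast cell markers in these libraries stood at 54.04 CPM, against 1.48 and 4.93. At E14.5, monocyte markers stood at 97.97 CPM in microglia replicate 2 and 24.5 in replicate 1. The relation of any of these markers to the counts of genes called was not tested. At E14.5 the count was 3 without microglia replicate 1, which leaves a lone microglia library whose spread is then taken from the rest of the groups. Of 151 calls of single genes over all comparisons, 97 were kept in every refit without 1 library. At E18.5, without the R10 library of each population, 16 of 34 genes were called.

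Among the transducers of the interferon signal, Stat2 and Irf9 were called higher in BAM at late stages, Irf7 in the mean over stages alone, and Usp18 was called lower at E10.5. Stat2 (chr10:128270559-128292849) is a subunit of the interferon-activated complex. Stat2 stood in BAM at 38.6, 23.4, 46.7 and 27.6 CPM at E10.5, 63.5, 57.7 and 58.6 at E11.5, 85.8, 95.4 and 93.96 at E12.5, 72.8, 68.6 and 89.02 at E14.5, 66.9, 95.2 and 70.9 at E16.5 and 101, 97.9, 106 and 119.6 at E18.5. In microglia Stat2 stood at 36.4, 47.6, 29.7 and 42.7 CPM at E10.5, 47.2, 54 and 72.5 at E11.5, 68.04, 59.4 and 74.5 at E12.5, 40.2 and 48.6 at E14.5, 54.7, 53.2 and 69.5 at E16.5 and 57.4, 42.2, 53.6 and 62.7 at E18.5. The populations overlapped at E10.5, E11.5 and E16.5 and were apart at the other stages. Stat2 was called higher in BAM at E14.5 (0.86 ± 0.23, adjusted p = 0.0137) and E18.5 (0.87 ± 0.17, adjusted p = 0.00032), and the E14.5 call was lost in 3 of 5 refits without 1 library.

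Irf9 (chr14:55603571-55610030) is the DNA-binding subunit of that complex, and its exons overlap those of Rnf31 on the same strand, so some reads may belong to either gene. Irf9 stood in BAM at 29.3, 46.6, 42.2 and 36.1 CPM at E10.5, 87.5, 85.3 and 97.4 at E11.5, 115, 92.9 and 105 at E12.5, 96.3, 106 and 118 at E14.5, 99.3, 105 and 105 at E16.5 and 172, 147, 158 and 170.0 at E18.5. In microglia Irf9 stood at 55.96, 75.8, 33.1 and 56.3 CPM at E10.5, 77.8, 87.8 and 85.6 at E11.5, 88.9, 59.97 and 84.7 at E12.5, 58.95 and 58.7 at E14.5, 62.2, 60.6 and 70.4 at E16.5 and 96.1, 75.2, 93.3 and 107 at E18.5. BAM libraries were lower on the whole at E10.5, with overlap, and every BAM library was above every microglia library from E12.5 on. The log2 difference went from -0.53 ± 0.16 (adjusted p = 0.0413) at E10.5 to 0.93 ± 0.21 (adjusted p = 0.0021) at E14.5 and 0.70 ± 0.16 (adjusted p = 0.00111) at E18.5. The E10.5 call was lost in 6 of 8 refits without 1 of its libraries and the E14.5 call in 2 of 5.

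Irf7 (chr7:141262706-141266481) is the interferon-induced factor that amplifies interferon production, and it overlaps Phrf1 on the other strand. Irf7 stood in BAM at 15.4, 18.1, 21.9 and 25.1 CPM at E10.5, 45.8, 47.2 and 55.8 at E11.5, 81.3, 85.9 and 49.9 at E12.5, 35.2, 45.9 and 48.2 at E14.5, 36.6, 48.5 and 25.7 at E16.5 and 81.7, 73.3, 75.7 and 86.4 at E18.5. In microglia Irf7 stood at 20.6, 25.3, 22.2 and 19.6 CPM at E10.5, 47.3, 51.8 and 49.3 at E11.5, 29.9, 39.5 and 48.1 at E12.5, 18.6 and 40.5 at E14.5, 27.5, 41.5 and 21.6 at E16.5 and 36.6, 17.02, 86.1 and 70.1 at E18.5. Its values overlapped between populations at every stage other than E12.5, and at E18.5 microglia spanned from the lowest level of any library after E10.5 to the level of the BAM libraries. The mean difference over stages was 0.36 ± 0.14 (adjusted p = 0.0432) and lost its call in 17 of 39 refits without 1 library.

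Usp18 (chr6:121245906-121270917) removes Isg15 from proteins and blocks the receptor. Usp18 stood in BAM at 2.72, 2.47, 0.7000 and 0.639 CPM at E10.5, 9.69, 7.41 and 10.3 at E11.5, 14.7, 20.02 and 10.2 at E12.5, 8.64, 8.75 and 8.42 at E14.5, 10.7, 10.48 and 8.01 at E16.5 and 23.3, 23.5, 35.9 and 35.4 at E18.5. In microglia Usp18 stood at 4.695, 9.74, 6.02 and 4.53 CPM at E10.5, 7.32, 10.8 and 12.3 at E11.5, 7.15, 9.38 and 9.78 at E12.5, 3.42 and 3.77 at E14.5, 5.44, 6.93 and 7.23 at E16.5 and 13.1, 9.35, 19.6 and 19.5 at E18.5. At E10.5 every BAM library was below every microglia library, the populations overlapped at E11.5, and at E12.5, E14.5, E16.5 and E18.5 every BAM library was above. The E10.5 difference was -1.92 ± 0.36 (adjusted p = 0.000451), the differences from E12.5 on lay between 0.62 ± 0.39 and 1.33 ± 0.46 with none called, and the equality of the differences over the stages was rejected (adjusted p = 0.000406).

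**Figure D4:**
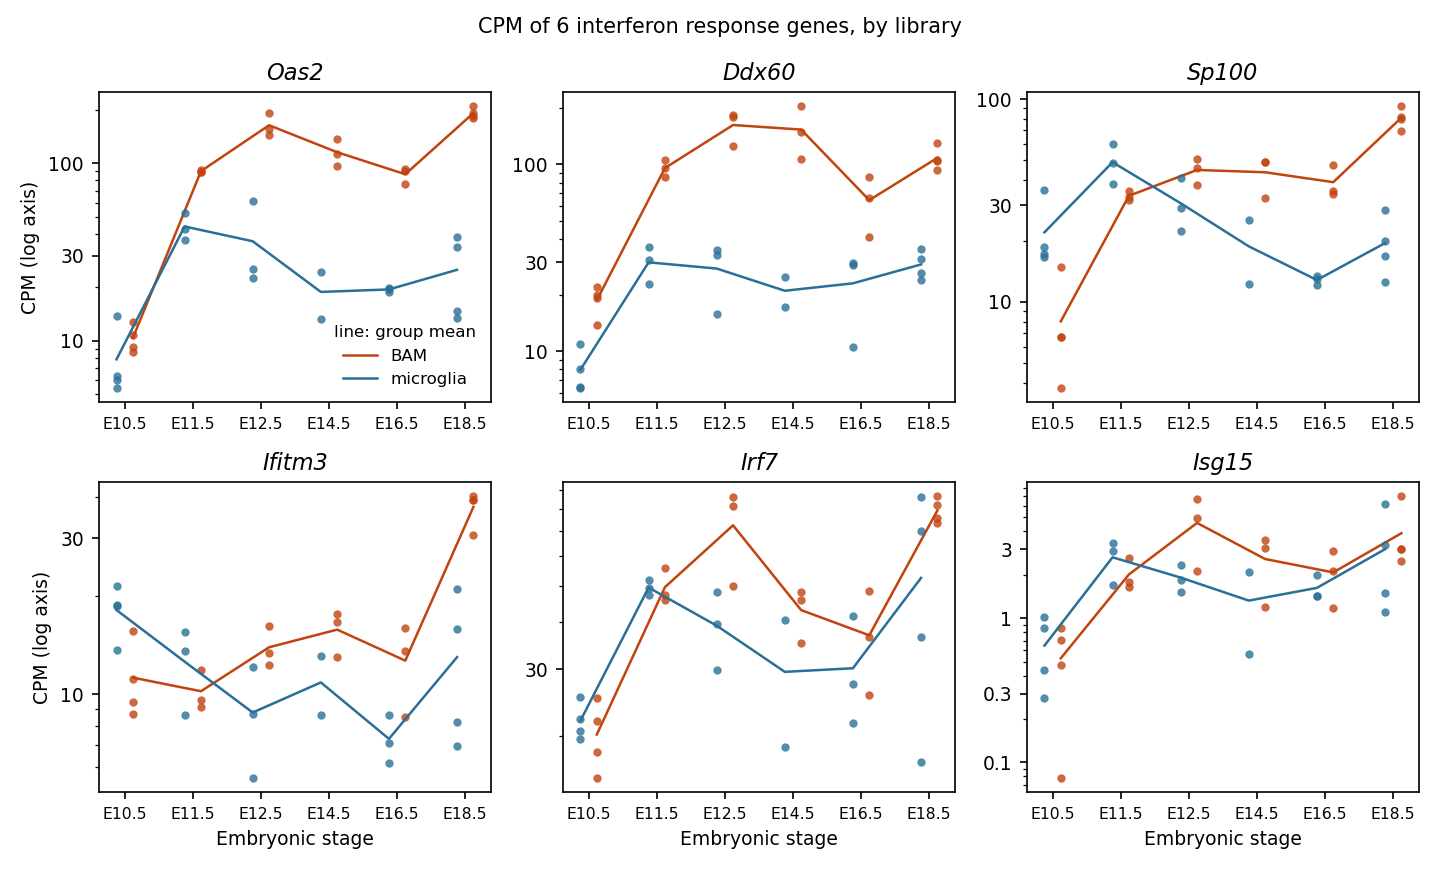
CPM (vertical log axis) of 6 of the genes in each library by stage, with BAM in orange, microglia in blue, and lines through the group means. The populations are apart at every stage for Ddx60 and from E11.5 on for Oas2. Sp100 crosses from lower in BAM at E10.5 to higher at E18.5. Ifitm3 rises in BAM at E18.5 to 30.7 to 40.2 CPM, and Irf7 and Isg15 overlap at most stages.

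Of the genes that sense foreign or misplaced nucleic acid or act beside such sensors, Ddx60, Dhx58, Ddx58 and Ifih1 were called higher in BAM in the mean over stages and Eif2ak2 and Zbp1 were not called. Ddx60 (chr8:61928087-62038244), a helicase related to the RNA sensors, had the smallest p of the 34 genes in the mean over stages. Ddx60 stood in BAM at 20, 19.3, 22.01 and 13.8 CPM at E10.5, 105, 85.97 and 95.9 at E11.5, 184, 179 and 125 at E12.5, 106, 149.6 and 206 at E14.5, 66.2, 86.04 and 40.98 at E16.5 and 129.8, 93.3, 106 and 105 at E18.5. In microglia Ddx60 stood at 6.36, 8.07, 6.46 and 10.96 CPM at E10.5, 30.6, 22.9 and 36.2 at E11.5, 32.7, 15.8 and 34.6 at E12.5, 17.2 and 24.98 at E14.5, 29.03, 29.7 and 10.6 at E16.5 and 26.1, 24.03, 31.3 and 35.1 at E18.5. No BAM library overlapped a microglia library of its stage. The log2 difference was 1.22 ± 0.27 at E10.5 (adjusted p = 0.00312), 1.66 ± 0.30 at E11.5 (0.000233), 2.57 ± 0.31 at E12.5 (1.59e-07), 2.93 ± 0.37 at E14.5 (4.9e-07), 1.53 ± 0.30 at E16.5 (0.000315) and 1.79 ± 0.26 at E18.5 (2.65e-06).

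Dhx58 (chr11:100694884-100704271) encodes LGP2, a regulator of the RNA sensors. Dhx58 stood in BAM at 24, 21.8, 18.7 and 24.1 CPM at E10.5, 47.8, 41.9 and 58.6 at E11.5, 60.4, 71.95 and 60.8 at E12.5, 39.3, 46.3 and 46.01 at E14.5, 44.7, 52.3 and 35.95 at E16.5 and 75.7, 64.7, 68.2 and 69.8 at E18.5. In microglia Dhx58 stood at 23.01, 27.4, 17.4 and 17.4 CPM at E10.5, 54.4, 41.7 and 53.6 at E11.5, 33.96, 32.1 and 46.7 at E12.5, 18.9 and 25.3 at E14.5, 25.1, 22.2 and 18.6 at E16.5 and 32.5, 21.8, 43.95 and 40.6 at E18.5. Both populations overlapped at E10.5 and E11.5 and were apart later, with log2 differences between 0.80 ± 0.21 at E12.5 (adjusted p = 0.00927) and 1.06 ± 0.21 at E16.5 (0.000315). The E12.5 call was lost in 3 of 6 refits without 1 library. Ddx58, the sensor RIG-I, differed by 0.84 ± 0.25 to 1.37 ± 0.33 from E12.5 on, with adjusted p from 0.0192 down to 0.00511. Refits without 1 library lost the Ddx58 call in 1 of 6 at E12.5 and 3 of 6 at E16.5. Ifih1, the sensor MDA5, was called higher in BAM at E16.5 (0.75 ± 0.22, adjusted p = 0.019, lost in 4 of 6 refits without 1 library) and E18.5 (0.84 ± 0.19, adjusted p = 0.00155). Eif2ak2, the RNA-activated kinase PKR, was not called at any stage and had a mean difference of 0.09 ± 0.07. The Z-nucleic-acid sensor Zbp1 was called lower in BAM at E10.5 (-2.71 ± 0.75, adjusted p = 0.0283), where BAM libraries held 34 counts in all and microglia 212, and the call was lost in 5 of 8 refits without 1 library.

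The oligoadenylate synthetases, which make the second messenger that activates RNase L, included called and uncalled genes. Oas2 (chr5:120730333-120749853) was the most different of them. Oas2 stood in BAM at 9.17, 8.600, 12.8 and 10.8 CPM at E10.5, 89.7, 91.3 and 89.7 at E11.5, 155, 144 and 192 at E12.5, 96.02, 137 and 113 at E14.5, 90.9, 92.5 and 76.7 at E16.5 and 210.1, 185, 192 and 180.4 at E18.5. In microglia Oas2 stood at 6.28, 13.7, 5.402 and 5.96 CPM at E10.5, 36.8, 42.6 and 52.6 at E11.5, 22.5, 25.4 and 60.99 at E12.5, 13.2 and 24.4 at E14.5, 19.6, 18.7 and 19.9 at E16.5 and 14.8, 13.4, 33.8 and 38.3 at E18.5. The groups overlapped at E10.5, and from E11.5 on every BAM library exceeded every microglia library. The differences were 2.19 ± 0.34 at E12.5 (adjusted p = 1.04e-05), 2.68 ± 0.41 at E14.5 (1.01e-05), 2.20 ± 0.34 at E16.5 (7.76e-06) and 2.83 ± 0.30 at E18.5 (3.63e-09).

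Oas1a (chr5:120896256-120907521) lies on the same stretch of chromosome 5 and belongs to a group of near-identical Oas1 copies, between which the counting could split reads. Oas1a stood in BAM at 7.84, 19.7, 13.3 and 17.8 CPM at E10.5, 75.8, 68.2 and 69.7 at E11.5, 115, 109 and 118 at E12.5, 65.03, 83.9 and 74.6 at E14.5, 65.8, 60.5 and 57.1 at E16.5 and 106, 104, 124 and 121 at E18.5. In microglia Oas1a stood at 13.4, 25.6, 18.9 and 15.3 CPM at E10.5, 42.9, 46.9 and 31.4 at E11.5, 35.9, 25.8 and 57.8 at E12.5, 16.7 and 32.3 at E14.5, 14.6, 14.2 and 17.2 at E16.5 and 20.1, 23.01, 43.5 and 40.7 at E18.5. The populations overlapped at E10.5, and every microglia library was below all BAM libraries of its stage from E11.5 on. The difference was 1.54 ± 0.29 at E12.5 (adjusted p = 0.000262), 1.67 ± 0.34 at E14.5 (0.000747), 2.04 ± 0.30 at E16.5 (3.36e-06) and 1.74 ± 0.25 at E18.5 (2.52e-06).

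Oas3, between these on the same strand, was scarce: BAM libraries held 2 counts in all at E10.5, 26 at E11.5 and 25 at E12.5, and microglia 36, 220 and 116. Its fitted differences at those stages lay between -3.80 ± 1.76 and -2.34 ± 1.52, none of them called. From E14.5 on its levels ranged alike, at 1.004 to 10.03 CPM in BAM and 1.10 to 14.2 in microglia. Oasl2 (chr5:114896936-114912234), a member of the synthetase family, was not called before E12.5. Oasl2 stood in BAM at 7.33, 5.85, 19.5 and 5.03 CPM at E10.5, 43.9, 55.6 and 54 at E11.5, 101, 86.04 and 71.7 at E12.5, 50.1, 56.2 and 67.9 at E14.5, 46.3, 50.9 and 34.5 at E16.5 and 142, 92.2, 95.6 and 113 at E18.5. In microglia Oasl2 stood at 21.2, 13.4, 13.5 and 14.2 CPM at E10.5, 42.2, 48.7 and 50.5 at E11.5, 29.2, 34.8 and 44.96 at E12.5, 20.2 and 29.7 at E14.5, 19.6, 16.2 and 19.9 at E16.5 and 27.3, 16.8, 39.1 and 36.6 at E18.5. BAM and microglia overlapped at E10.5 and E11.5 and were apart later, and the differences from E12.5 on lay between 1.25 ± 0.32 (adjusted p = 0.00729) at E12.5 and 1.77 ± 0.28 (adjusted p = 8.68e-06) at E18.5. The E12.5 call was lost in 1 of 6 refits without 1 library, and leaving out BAM replicate 2 or 3 lost the E14.5 call. Oasl1, the neighbour of Oasl2, was not called at any stage (mean difference 0.13 ± 0.33).

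The Ifit genes, Isg15 and Herc6 are often used as readouts of an interferon response, and all 5 had a mean difference above 0. Ifit1, Ifit2 and Ifit3, which lie together on chromosome 19 and bind viral RNA or translation factors, had mean differences of 0.57 ± 0.25, 0.28 ± 0.17 and 0.60 ± 0.18, and Ifit3 alone was called (adjusted p = 0.0116). Ifit3 shares near-identical sequence with Ifit3b. Isg15 (chr4:156199424-156200818), a ubiquitin-like protein, was scarce throughout. Isg15 stood in BAM at 0.475, 0.705, 0.0778 and 0.853 CPM at E10.5, 1.65, 2.59 and 1.78 at E11.5, 4.92, 6.67 and 2.14 at E12.5, 1.19, 3.46 and 3.07 at E14.5, 2.12, 2.94 and 1.17 at E16.5 and 2.501, 3.04, 6.98 and 2.999 at E18.5. In microglia Isg15 stood at 0.854, 1.01, 0.438 and 0.278 CPM at E10.5, 1.701, 2.92 and 3.304 at E11.5, 1.85, 2.36 and 1.53 at E12.5, 0.561 and 2.09 at E14.5, 1.43, 2.001 and 1.43 at E16.5 and 1.105, 1.496, 6.21 and 3.22 at E18.5. The populations overlapped at all 6 stages, and the mean difference was 0.37 ± 0.28 (adjusted p = 0.384), which was not called. Herc6, the ligase that attaches Isg15 in mice, had a mean difference of 0.11 ± 0.14.

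Of the membrane proteins, Bst2 (chr8:71534255-71537456), tetherin, which holds budding virus on the cell surface, was the most abundant of the 34 for its length in all groups other than microglia at E10.5, where Trim30a led. Bst2 stood in BAM at 23.3, 21.6, 38.6 and 55.8 CPM at E10.5, 62.9, 65.2 and 54.97 at E11.5, 116, 121 and 106 at E12.5, 114, 125 and 101 at E14.5, 104, 123 and 106 at E16.5 and 98.4, 148, 169 and 153 at E18.5. In microglia Bst2 stood at 17.5, 27.01, 26.9 and 28.5 CPM at E10.5, 47.9, 56.8 and 38.1 at E11.5, 59.6, 46.2 and 73.6 at E12.5, 51.7 and 52 at E14.5, 35.1, 52.4 and 50.9 at E16.5 and 35.9, 48.3, 81.8 and 67.3 at E18.5. The populations overlapped at E10.5 and E11.5 and did not afterwards. The log2 difference was 0.95 ± 0.27 at E12.5 (adjusted p = 0.0199), 1.197 ± 0.31 at E14.5 (0.011), 1.31 ± 0.27 at E16.5 (0.000634) and 1.18 ± 0.24 at E18.5 (0.000302). The E12.5 call was lost in 3 of 6 refits without 1 library, and leaving out BAM replicate 2 lost the E14.5 call. On a scale of CPM per kilobase of the gene length in the deposited table, Bst2 was the highest of the 34 genes in BAM at E18.5, at 157 ± 33.7 (SD, n = 4), followed by Oas1a at 60.4 ± 5.5. In microglia at E18.5 it was also the highest, at 64.6 ± 22.5 (n = 4), followed by Trim30a at 29.4 ± 3.8.

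Ifitm3 (chr7:141009586-141010770) restricts virus entry in endosomes. Ifitm3 stood in BAM at 9.47, 11.2, 8.71 and 15.7 CPM at E10.5, 9.65, 9.18 and 11.8 at E11.5, 16.1, 13.3 and 12.3 at E12.5, 13.04, 17.6 and 16.6 at E14.5, 13.5, 15.98 and 8.52 at E16.5 and 39.3, 39.1, 40.2 and 30.7 at E18.5. In microglia Ifitm3 stood at 18.6, 18.8, 21.4 and 13.6 CPM at E10.5, 8.65, 13.6 and 15.5 at E11.5, 5.55, 8.71 and 12.2 at E12.5, 8.66 and 13.1 at E14.5, 7.100, 8.67 and 6.18 at E16.5 and 6.97, 8.23, 20.96 and 15.8 at E18.5. The 4 BAM libraries of E18.5 stood above every other library of either population. The population difference was called at E18.5 (1.42 ± 0.28, adjusted p = 0.00027) and at no other stage. Rtp4 (chr16:23520291-23614222) is a transporter-like protein that limits flavivirus replication. Rtp4 stood in BAM at 5.77, 12.4, 26.2 and 16.54 CPM at E10.5, 88.3, 78.1 and 77.9 at E11.5, 109, 116 and 99.9 at E12.5, 85.2, 77.9 and 73.8 at E14.5, 56.5, 59.4 and 49.6 at E16.5 and 90.7, 98.2, 125 and 127 at E18.5. In microglia Rtp4 stood at 7.21, 16.4, 14.2 and 15.1 CPM at E10.5, 50.99, 45.1 and 35.1 at E11.5, 31.7, 30.4 and 65.4 at E12.5, 16.4 and 33.2 at E14.5, 13.2, 15.2 and 16.3 at E16.5 and 19.7, 25.9, 41.99 and 32.03 at E18.5. It overlapped between populations at E10.5, was apart from E11.5 on, and differed by 1.37 ± 0.34 at E12.5 (adjusted p = 0.00549), 1.74 ± 0.40 at E14.5 (0.00273), 1.93 ± 0.35 at E16.5 (8.57e-05) and 1.78 ± 0.30 at E18.5 (2.08e-05). The E12.5 call of Rtp4 was lost in 2 of 6 refits without 1 library.

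Nuclear and ubiquitin-linked members varied in the timing of their difference. Sp100 (chr1:85649988-85709998), a component of nuclear bodies, had the smallest p for a difference that varied with stage. Sp100 stood in BAM at 6.76, 6.697, 3.77 and 14.9 CPM at E10.5, 35.3, 32.8 and 31.97 at E11.5, 50.6, 45.8 and 37.8 at E12.5, 32.7, 48.8 and 49.2 at E14.5, 34.1, 47.5 and 35.2 at E16.5 and 92.3, 69.8, 79.7 and 81.7 at E18.5. In microglia Sp100 stood at 16.7, 35.5, 18.6 and 17.3 CPM at E10.5, 48.3, 38.2 and 60 at E11.5, 22.4, 28.9 and 40.7 at E12.5, 12.2 and 25.4 at E14.5, 13.4, 12.1 and 13.02 at E16.5 and 16.9, 12.53, 20.1 and 28.5 at E18.5. Every BAM library was below every microglia library at E10.5 and E11.5, the populations overlapped at E12.5, and every BAM library was above from E14.5 on. The difference was -1.47 ± 0.29 at E10.5 (adjusted p = 0.0012), 1.28 ± 0.38 at E14.5 (0.034), 1.65 ± 0.34 at E16.5 (0.000524) and 1.95 ± 0.29 at E18.5 (4.19e-06). The E14.5 call was lost in 3 of 5 refits without 1 library.

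Trim30a (chr7:104409025-104465193), a regulator of Toll-like receptor signalling with close relatives beside it, had the most counts of the 34 genes. Trim30a stood in BAM at 126, 112, 144 and 138 CPM at E10.5, 224, 225 and 219 at E11.5, 215, 234 and 218 at E12.5, 206, 159.6 and 178 at E14.5, 178, 149.7 and 164 at E16.5 and 274, 221, 206 and 202 at E18.5. In microglia Trim30a stood at 112, 148, 107 and 121 CPM at E10.5, 202, 172 and 254 at E11.5, 143, 162 and 136 at E12.5, 86.4 and 108 at E14.5, 112, 90.8 and 111 at E16.5 and 100.1, 122, 138 and 124 at E18.5. The populations overlapped at E10.5 and E11.5 and were apart later, by modest amounts: 0.61 ± 0.15 at E12.5 (adjusted p = 0.00603), 0.96 ± 0.17 at E14.5 (0.00015), 0.70 ± 0.15 at E16.5 (0.000996) and 0.81 ± 0.13 at E18.5 (1.53e-05). Xaf1 (chr11:72301629-72313733) promotes cell death through XIAP. Xaf1 stood in BAM at 4.14, 7.58, 6.65 and 5.88 CPM at E10.5, 19, 20.1 and 18.8 at E11.5, 28.9, 32.3 and 35.2 at E12.5, 17.8, 27.9 and 20.2 at E14.5, 15.7, 22.6 and 22.6 at E16.5 and 25.9, 32.7, 45.4 and 39.1 at E18.5. In microglia Xaf1 stood at 4.31, 6.84, 7.19 and 8.26 CPM at E10.5, 17.5, 13.1 and 17.2 at E11.5, 13.3, 12.96 and 21.3 at E12.5, 7.07 and 12.8 at E14.5, 9.91, 8.602 and 11.2 at E16.5 and 7.61, 13.5, 18.1 and 14.7 at E18.5. From E11.5 on every BAM library was above every microglia library of its stage, and the difference was called from E12.5 (1.04 ± 0.29, adjusted p = 0.0149) to E18.5 (1.31 ± 0.25, adjusted p = 0.000164). Refits without 1 library lost the call in 3 of 6 at E12.5 and 1 of 6 at E16.5, and leaving out BAM replicate 2 lost it at E14.5.

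Among the remaining effectors, Parp14, an ADP-ribosyltransferase, differed by 0.65 ± 0.20 at E12.5 and 0.87 ± 0.17 at E18.5. Its E12.5 call was lost in 3 of 6 refits without 1 library. Ifi27l2a, a small membrane-associated protein, differed by 2.55 ± 0.73 at E14.5 (adjusted p = 0.0232). At E10.5 it held 28 counts over the BAM libraries and 46 over microglia. Rsad2, the antiviral enzyme viperin, was called higher in BAM at E10.5 (2.16 ± 0.59, adjusted p = 0.027), a call lost in 3 of 8 refits without 1 library, and in the mean over stages. Its neighbour on chromosome 12, the nucleotide kinase Cmpk2, was called at E12.5, E16.5 and E18.5, calls lost in 5 of 6, 4 of 6 and 7 of 8 refits without 1 library. The dynamin-like GTPases Mx1 and Mx2, for which C57Bl/6 mice are known to carry defective alleles, were not called higher in BAM at any stage. Mx2 stood at 2.86 to 3.90 CPM in BAM and 7.78 to 13.5 in microglia at E16.5 and was called lower there (-1.56 ± 0.48, adjusted p = 0.0238), a call lost in 4 of 6 refits without 1 library. Ifi35 had a mean difference of 0.08 ± 0.10, and Ifi44 was at 0 counts in all 8 libraries of E10.5 and reached at most 5.42 CPM.

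Between E10.5 and E11.5 the response genes rose in both populations. In microglia 22 of 34 were called higher at E11.5 and 0 lower, against 5.24% and 3.02% of all genes, and their median log2 difference was 1.22 against 0.00 for all genes. In BAM 21 of 34 were called higher and 0 lower, against 2.98% and 1.44%, with a median of 1.56. The calls shared by both populations numbered 18, which is 81.8% of the microglia calls and 85.7% of the BAM calls. Ifit1, Ifit2, Isg15 and Rsad2 were called in microglia and not in BAM, and Cmpk2, Oasl1 and Usp18 in BAM and not in microglia, a difference that was not tested gene by gene. All libraries of these 4 groups are of series R10.

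Oas2 had the smallest p in both. It went from 7.83 ± 3.92 CPM (SD, n = 4) to 44.0 ± 8.02 (n = 3) in microglia (2.52 ± 0.31, adjusted p = 7.28e-07), and from 10.3 ± 1.86 to 90.2 ± 0.911 in BAM (3.15 ± 0.32, adjusted p = 4.48e-08). Ddx60 rose by 1.93 ± 0.28 in microglia (adjusted p = 1.06e-05) and by 2.37 ± 0.28 in BAM (1.12e-06). Dhx58 rose by 1.26 ± 0.19 in microglia (2.04e-05) and Oas1a by 2.31 ± 0.27 in BAM (1.12e-06). None of these groups overlapped between E10.5 and E11.5. The transducers had smaller differences, with Stat2 at 0.59 ± 0.19 and 0.84 ± 0.19 and Irf9 at 0.63 ± 0.17 and 1.25 ± 0.17 in microglia and BAM. The call of Stat2 in microglia was lost in 4 of 7 refits without 1 library. Ifitm3 (-0.50 ± 0.30 and -0.11 ± 0.30), Eif2ak2 (0.25 ± 0.15 and 0.17 ± 0.15) and Parp14 (0.47 ± 0.18 and 0.57 ± 0.18) were called in neither.

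**Figure D5:**
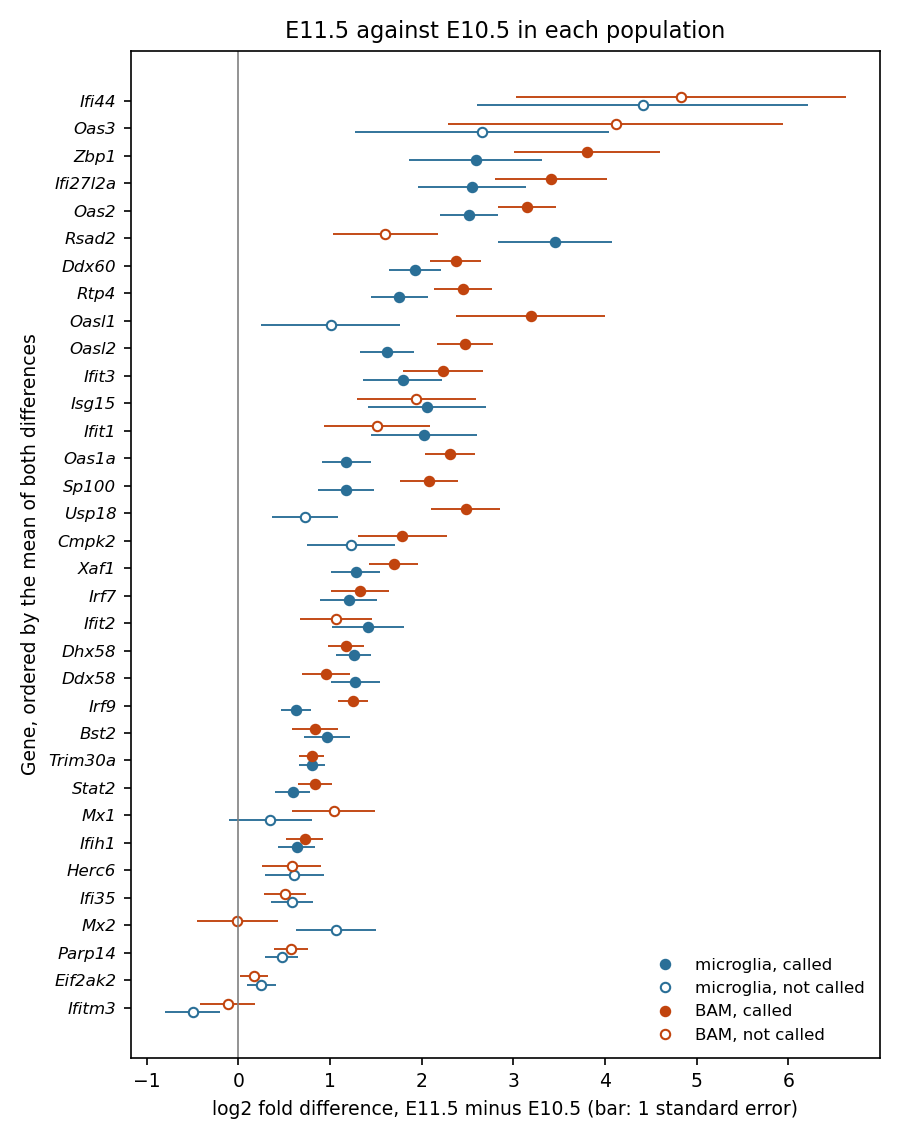
Log2 difference E11.5 minus E10.5 (horizontal axis, bars of 1 standard error) for each of the 34 genes (vertical axis) in microglia (blue) and BAM (orange), with filled points for genes called. Points left of 0 are those of Ifitm3 in both populations and Mx2 in BAM, and the filled points run from Stat2 in microglia at 0.59 to Zbp1 in BAM at 3.81.

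Marker levels moved over the same interval. All 8 microglia markers rose in microglia, and 3 of 8 BAM markers rose in each population. Summed macrophage markers (3 of 6 called higher in each population) went from 4721 to 5606 CPM over the BAM libraries at E10.5 to 7364 to 7691 at E11.5, and from 4880 to 6228 to 8681 to 10340 in microglia. Summed monocyte markers (1 of 6 called lower) stood at 49.6 to 81.1 CPM in microglia at E10.5 and 19.9 to 36.5 at E11.5, and at 7.54 to 13.6 and 1.07 to 4.91 in BAM. Granulocyte and mast cell markers, none of which was called, summed to 34.05 to 89.5 CPM in microglia at E10.5 and at most 5.18 at E11.5. Mesenchymal markers (4 of 6 called higher in BAM, 2 of 6 in microglia) summed to 3.17 to 22.4 CPM in BAM at E10.5 and 45.3 to 47.9 at E11.5, and to 1.37 to 11.7 and 18.7 to 23.7 in microglia. Erythroid markers (1 of 6 called higher in BAM, 3 of 6 in microglia) went from 42.5 to 44.2 CPM to 74.4 to 83.6 in BAM and from 11.7 to 25.3 to 38.4 to 51.2 in microglia. In microglia 2 of 6 neural markers and 1 of 6 endothelial markers were also called higher, and in BAM 0 of either. The part of these cells in the rise was not tested. In the fit of the compared groups alone, 12 of 34 genes were called in BAM.

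Within each population, E14.5 and E18.5 were each compared with E12.5, and other later steps were not tested. Between E12.5 and E14.5, 0 of 34 were called in microglia (background 0.00453% higher and 0.0136% lower), and DESeq2 called 1. In that step the median log2 difference of the list was -0.71 against -0.02 for all genes, and 3 of 34 fitted differences were above 0. In BAM 0 of 34 were called over that step (background 0.299% and 0.485%) and 0 by DESeq2, and the median was -0.35. Eif2ak2 had the smallest p in microglia, at 80.5, 73.3 and 67.7 CPM at E12.5 and 40.1 and 42.4 at E14.5 (-0.91 ± 0.19, adjusted p = 0.0636).

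Between E12.5 and E18.5, 0 of 34 genes were called in microglia (background 4.01% and 2.74%), and DESeq2 called 2. In BAM, Ifitm3 (1.48 ± 0.31, adjusted p = 0.00109) and Irf9 (0.69 ± 0.17, adjusted p = 0.00522) rose, which is 5.88% of the 34 against 5.24% of all genes, and 0 fell against 5.32%. No library of E12.5 overlapped one of E18.5 for either gene. Without the R10 library of E18.5, 3 genes were called in BAM, DESeq2 called 5, and the compared groups fitted alone gave 8. Sp100 stood at 37.8 to 50.6 CPM in BAM at E12.5 and 69.8 to 92.3 at E18.5, which missed the threshold (0.91 ± 0.31, adjusted p = 0.0563).

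Upstream of these genes, of 20 genes of interferon sensing and signalling, 2 were higher in BAM and 9 lower in the mean over stages. Among all 22061 genes tested, 3030 (13.7%) were higher and 3199 lower in that comparison, 28.2% in either direction. The median log2 difference of the 20 genes was -0.21. By stage the counts ran from 0 higher and 4 lower at E10.5 (2.32% and 2.16% of all genes) to 3 higher and 2 lower at E14.5 (3.93% and 3.25%). At E18.5, 1 was higher and 8 lower (6.7% and 8.75%). Among the 20, the smallest p in the mean over stages were those of Irf8 (-0.76 ± 0.05), Irf5 (-0.57 ± 0.05), Tmem173 (STING, -1.15 ± 0.07) and Tlr3 (-1.07 ± 0.14). Irf8 and Irf5 are transcription factors, Tmem173 a DNA-sensor adaptor and Tlr3 an RNA sensor, and all were lower in BAM. At the first step, 6 of the 20 rose in microglia (5.24% of all genes) and 3 in BAM (2.98%), and 0 fell in either. The levels that follow were chosen after their values were seen, for the place of the genes in the pathway. Receptor chains were well represented: Ifnar1 had a median of 258 CPM in BAM and 235 in microglia, and Ifnar2 149 and 144.

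The 10 interferon genes looked at were close to absent from the counts, and no other interferon gene was looked at. Of the 10, 1 passed the filter on low counts, Ifnk, with a highest level of 0.76 CPM. Ifnb1 held 2 counts over the 20 BAM libraries and 22 over the 19 microglia libraries, and was at 0 in 19 and 15 of them. Ifna1 held 14 counts in a single BAM library and 0 in microglia, and Ifna2, Ifna4, Ifna5, Ifne, Ifng, Ifnl2 and Ifnl3 held 0 in all 39. If each count were a separate fragment, a count of 0 in a library would allow up to 3 counts. Even counts were more frequent than odd ones, so the limit may be higher. Low transcription below that limit could not be seen at this depth.

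A second list of 30 interferon-inducible genes outside the 34 held calls in both directions. In the mean over stages 12 were higher in BAM and 5 lower, with a median log2 difference of 0.19. Among all 22061 genes tested, 3030 (13.7%) were higher and 3199 lower in that comparison, 28.2% in either direction. The higher calls were thus more frequent in the list than among all genes, and the lower calls about as frequent, which was not tested. Gbp7, a guanylate-binding protein (1.203 ± 0.07), Samhd1, which hydrolyses nucleotides (0.79 ± 0.06), and Ifitm2, a relative of Ifitm3 (1.94 ± 0.16), were higher, and Ly6e, a membrane protein (-1.16 ± 0.08), was lower. At the first step 6 of the 30 rose in microglia (5.24% of all genes) and 10 in BAM (2.98%), and 0 fell in either. At E10.5, 1 was higher and 3 lower in BAM (2.32% and 2.16% of all genes), and at E18.5, 9 were higher and 5 lower (6.7% and 8.75%).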

How the data were processed

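RNA of sorted microglia and border-associated macrophages was sequenced as paired-end libraries, and the deposited file holds raw read counts per gene for 39 libraries. Per the submitters' processing notes, the authors used STAR, featureCounts and the mouse build GRCm38, and the strand setting of the counting and the versions are not given in the sources used here. Even counts were more frequent than odd ones (49977 table cells held a 2 and 21280 a 1), so counts divided by 2 and rounded were tried as an alternative. No per-sample column was left unused (0), and no 2 libraries were identical.

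Groups came from the labels. CPM were computed from the raw counts. The main test was edgeR's quasi-likelihood test (edgeR 4.0.16, limma 3.58.1, R 4.3.3) with 1 coefficient for each of 12 groups, TMM factors (0.897 to 1.11), edgeR's default filter on low counts and Benjamini-Hochberg adjustment over 22061 genes in each of 14 comparisons, called at 0.05. The fit had 27 residual degrees of freedom, and SE is the log2 difference divided by the root of F. The script was tested on simulated data. Alternatives were RLE factors, no filter, DESeq2 1.42.0, the compared groups alone, a block of adjacent library numbers, leaving out the R10 libraries of E18.5, and leaving out each library in turn.

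The members and lists were chosen with earlier results of these data known. Values in every library are given for the 8 members with the smallest p in the mean over stages, the 3 with the smallest p in each other comparison where called, and Isg15, Irf7, Stat2, Ifitm3 and Bst2. Of the other lists, up to 4 called genes with the smallest p in the mean are named. Some genes of these lists are not reported here.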

Additional observations from a re-analysis of the deposited data

Results flagged for a closer look

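Among 64 sets of 4 libraries of a gene whose values are printed per library, 7 held a library whose gap to the nearest other exceeded Dixon's critical share of the range, where chance gives about 1 in 20. Isg15 was at 6.98 CPM in BAM E18.5 replicate 3, against 2.50 to 3.04 in the other libraries of that group. Oas2 was at 13.7 CPM and Sp100 at 35.5 CPM in microglia E10.5 replicate 2, against 5.40 to 6.28 and 16.7 to 18.7 in the others. In microglia E10.5 replicate 1, Oasl2 was at 21.2 CPM (others 13.4 to 14.2) and Bst2 at 17.5 CPM (others 26.9 to 28.5). Oasl2 was at 19.5 CPM in BAM E10.5 replicate 3 (others 5.03 to 7.33), and Ifitm3 at 30.7 CPM in BAM E18.5 replicate 4 (others 39.1 to 40.2).

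The difference between BAM and microglia varied with stage for 14 genes in edgeR's test of equality over the 6 stages. Stage and library series cannot be told apart between E11.5 and E12.5. Adjusted p was 1.1e-06 for Sp100, 0.000181 for Oas1a, 0.000209 for Oasl2, 0.00029 for Irf9, 0.000353 for Oas2 and 0.000406 for Usp18. For Ifitm3 it was 0.00342, for Trim30a 0.00627, for Parp14 0.00831 and for Dhx58 0.00955. It was 0.0204 for Stat2, 0.0285 for Xaf1, 0.0376 for Rtp4 and 0.0445 for Ddx60. The call of Ddx60 was lost in 28 of 39 refits without 1 library and that of Rtp4 in 17.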

How the results depend on the processing

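Counts of the 34 genes called held within 1.5 times under the alternatives other than the following, whose cause was not tested. With the compared groups alone, 1 gene was called between populations at E10.5, 3 at E11.5, 1 in microglia from E12.5 to E18.5, 12 in BAM from E10.5 to E11.5 and 8 in BAM from E12.5 to E18.5. At E11.5, 2 genes were called with RLE factors, without the filter, by DESeq2 and with counts divided by 2. DESeq2 called 1 gene in microglia from E12.5 to E14.5, 2 from E12.5 to E18.5 and 5 in BAM from E12.5 to E18.5. Without the filter the last 2 counts were 1 and 4, and with counts divided by 2 the counts in microglia were 1 and 1. Leaving out 1 library gave 20 to 24 calls in the mean over stages, 3 to 6 at E10.5 (3 without BAM replicate 4), 1 to 1 at E11.5, 5 to 12 at E12.5, 3 to 15 at E14.5, 12 to 16 at E16.5 and 16 to 17 at E18.5. It gave 15 to 25 from E10.5 to E11.5 in microglia and 17 to 20 in BAM, 0 to 0 from E12.5 to E14.5 in each, 0 to 1 from E12.5 to E18.5 in microglia (1 without E12.5 replicate 1 or E18.5 replicate 2), 2 to 3 in BAM, and 11 to 16 for population by stage. The labels do not pair libraries. A block of adjacent library numbers gave 4 calls at E11.5, 8 at E10.5, 22 in the mean over stages and 18 at E18.5, and 13 of 19 adjacent pairs had correlated deviations above 0.1 (range -0.47 to 0.55). RLE factors and DESeq2 set the median of all genes at E16.5 at -0.12. Genes at a few counts, such as Oas3, Ifi44 and Zbp1 at E10.5, are limited by depth.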
